A study of Homo sapiens with 4 samples.

Results

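Of the 11181 progesterone receptor (PR) binding sites of these T47D cells, 1839 (16.4%) had a score below 150 and a midpoint within 1 kb of the start of a protein-coding transcript. They were selected on exactly these values, the deposited score and the position, so neither is a finding below. The score is that of the peak caller MACS, 10 times the −log10 of a p-value, and no deposited site had a score under 50. A score below 150 was not an intermediate class, since it held 10734 of the 11181 sites (96.0%) and 94.5% of the 1946 promoter sites. The 1839 sites thus include the weakest calls, with quartiles of 65.2, 77.6 and 89.0, and are called the lower-score promoter sites here. The 107 promoter sites with a score of 150 or more and the 8895 sites below 150 elsewhere served for comparison.

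T47D is an established line of luminal breast cancer cells. The PR was immunoprecipitated after 10 nM R5020, a synthetic progestin, for 1 h, in 1 ChIP-seq library for which input DNA was the authors' control. RNA was sequenced in 1 library after 10 nM R5020 for 3 h and in 1 library after the ethanol vehicle (EtOH) for 3 h. No ChIP without hormone was analysed here, so binding in R5020 cannot be set against binding in EtOH. As each condition had 1 library, the spread between cultures is unknown, no test was possible and every difference describes these libraries. The deposited coverage corresponded to 35151493 reads of 50 bases in EtOH and 36203604 in R5020. The paper states larger numbers of unique paired-end reads, with more in EtOH than in R5020, and this difference was not examined. Luminal genes were abundant (*KRT19* 608 FPKM in EtOH and 477 in R5020, *EPCAM* 62.2 and 55.6), whereas the leukocyte gene *PTPRC* and the basal gene *KRT14* were below 0.1 FPKM in both libraries. The other basal genes checked were *ACTA2* (1.93 FPKM in EtOH and 1.35 in R5020), *TP63* (0.143 and 0.121) and *KRT5* (0.0102 and 0.232). Among fibroblast genes, *COL1A1* was at 5.12 and 3.31 FPKM, *VIM* at 0.360 and 0.527 and *DCN* at 0.284 and 0.154. *COL1A2* and *COL3A1* were listed at 0 in both libraries. *KRT8* and *KRT18* were listed at 0 in EtOH with a failed estimate. No gene with a lower-score promoter site had a failed estimate.

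The PR is a ligand-activated transcription factor of the nuclear receptor family. In the presence of progestin it binds DNA as a dimer, classically at a progesterone response element (PRE), a palindrome that the glucocorticoid and androgen receptors also use. It can also be held at chromatin through other factors, among them SP1 at GC boxes and AP-1. Many of its sites in breast cells are enhancers far from genes, and promoters are often CpG-rich stretches where many factors meet.

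The canonical element was searched as GNACA and TGTNC separated by 3 bases, which reads the same on both strands. In the 200 bases centred on the midpoint it was present in 14 of the 1839 lower-score promoter sites (0.761%, Wilson 95% interval 0.454 to 1.27), and in 23 (1.25%) when the whole site was searched. The following stretches are examples of these exceptions. They carry the palindrome, in capitals, with 30 bases on either side, are written on the + strand of hg19 (GRCh37) and lie outside annotated exons. Genes at least 1.5-fold higher in R5020 (*PTPRJ*, *MICAL2*, *MBNL1*, *MYNN*) were preferred, so the examples do not represent all sites with a palindrome. *SPTB* and *NXPH4*, with higher site scores than *ETNK2*, are not shown.

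*MT2A*: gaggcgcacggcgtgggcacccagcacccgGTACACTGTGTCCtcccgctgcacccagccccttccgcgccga
*PTPRJ*: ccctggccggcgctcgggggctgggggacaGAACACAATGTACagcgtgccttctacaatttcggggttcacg
*MICAL2*: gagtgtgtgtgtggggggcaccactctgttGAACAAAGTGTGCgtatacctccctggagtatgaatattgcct
*MBNL1*: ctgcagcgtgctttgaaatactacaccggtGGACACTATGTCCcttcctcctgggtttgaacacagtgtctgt
*MYNN*: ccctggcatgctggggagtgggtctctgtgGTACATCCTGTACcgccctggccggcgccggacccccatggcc
*CABLES2*: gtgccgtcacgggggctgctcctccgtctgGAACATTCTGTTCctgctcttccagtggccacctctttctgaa
*ETNK2*: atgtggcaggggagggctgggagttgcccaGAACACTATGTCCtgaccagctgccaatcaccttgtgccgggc

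The *MT2A* stretch (chr16:56642201-56642273) belonged to a site with a score of 142, and its palindrome was centred 259 bp upstream of the start. That of *PTPRJ* (chr11:48001598-48001670) lay 343 bp upstream of its start and that of *MYNN* (chr3:169491029-169491101) 119 bp upstream. The *MICAL2* (chr11:12159158-12159230), *CABLES2* (chr20:60972182-60972254) and *ETNK2* (chr1:204119453-204119525) palindromes were intronic with respect to some annotated transcript and lay 741, 831 and 480 bp upstream of the start. The palindrome of *MBNL1* (chr3:151988137-151988209) was intronic, 935 bp downstream of the start and 2 bp from the midpoint of its site. The 7 sequences share the 8 letters that the search fixed.

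Sites without the palindrome are shown next. These stretches of 150 bases come from sites at genes with higher (*NET1*, *VDR*) or lower (*TRIL*, *GATA3*) RNA in R5020 and at the PR gene itself. They are the exon-free part nearest the site's midpoint, written 5′ to 3′ on the strand of the gene, with matches to the searched motifs in capitals.

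*NET1*: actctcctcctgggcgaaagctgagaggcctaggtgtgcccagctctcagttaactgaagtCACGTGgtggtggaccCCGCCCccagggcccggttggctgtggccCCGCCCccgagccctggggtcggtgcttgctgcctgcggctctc
*VDR*: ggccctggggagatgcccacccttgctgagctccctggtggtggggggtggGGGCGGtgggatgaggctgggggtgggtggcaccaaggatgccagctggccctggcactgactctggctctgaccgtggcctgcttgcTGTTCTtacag
*TRIL*: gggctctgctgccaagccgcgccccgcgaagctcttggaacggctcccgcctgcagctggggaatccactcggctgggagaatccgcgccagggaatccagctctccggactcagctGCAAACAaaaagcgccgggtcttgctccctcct
*GATA3*: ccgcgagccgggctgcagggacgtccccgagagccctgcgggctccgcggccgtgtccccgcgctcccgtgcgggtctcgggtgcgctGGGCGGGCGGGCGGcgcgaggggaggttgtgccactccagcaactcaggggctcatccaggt
*PGR*: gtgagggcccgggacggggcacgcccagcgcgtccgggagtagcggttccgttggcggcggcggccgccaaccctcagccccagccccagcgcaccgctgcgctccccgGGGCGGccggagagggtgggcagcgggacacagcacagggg

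The *NET1* stretch (chr10:5488422-5488571, + strand) holds 2 GC boxes and 1 E-box. In *VDR* (chr12:48272899-48273048, − strand) the capitals are 1 GC box and 1 PRE half-site, TGTTCT. In *TRIL* (chr7:28997947-28998096, − strand) they are 1 match, on the opposite strand, to TGTTTGC, the second of 2 forkhead motifs searched. *GATA3* (chr10:8097079-8097228, + strand) has 3 overlapping GC boxes and *PGR* (chr11:100998015-100998164, − strand) has 1.

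The positions of the lower-score promoter sites are described here, since the selection used them. Their median width was 470 bp (quartiles 396 and 523), against 624 bp in promoter sites of 150 or more. Within the 1 kb that the selection allowed, the midpoint lay a median of 72 bp downstream of the nearest start. It was within 200 bp of a start in 751 sites (40.8%) and within 500 bp in 1343 (73.0%), and 730 sites (39.7%) were upstream of their start. The bin from 0 to 200 bp downstream was the fullest, with 421 sites. The promoter sites of 150 or more were arranged alike, with a median of 30 bp downstream and 43.9% within 200 bp. Midpoints fell in an annotated exon in 851 sites, in an intron in 721 and between protein-coding genes in 267.

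**Figure D1:**
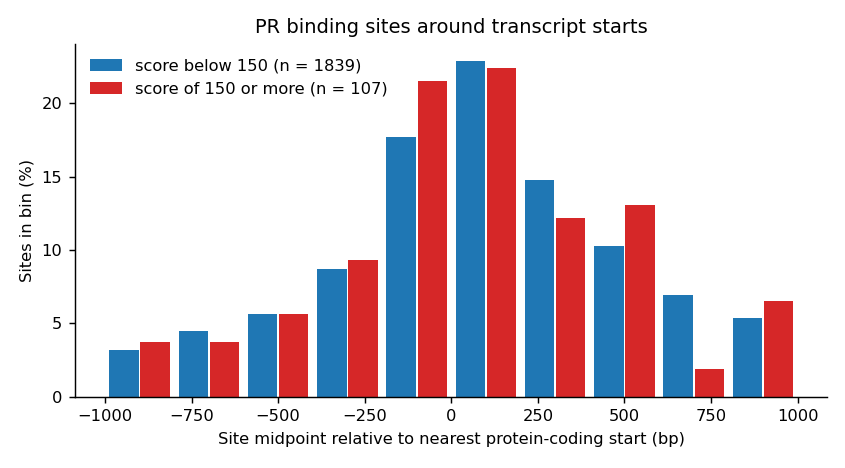
Position of the midpoint of promoter PR sites relative to the nearest protein-coding start (bp, negative is upstream), as the percentage of sites in bins of 200 bp. The selection confined both classes to this window, and the fullest bin is the same in both: 22.9% of the sites below 150 (blue) and 22.4% of those of 150 or more (red) lie 0 to 200 bp downstream.

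In base composition these sites resembled promoters at large rather than the other PR sites below 150. The selection put each midpoint within 1 kb of a start and kept promoters out of the class elsewhere. This likeness is thus partly built into the selection and is given as description. The median GC content of the central 200 bases was 66.5%, against 55.5% in the sites below 150 elsewhere and 63.0% in the same window around all 78582 protein-coding starts. The observed over expected CpG ratio was 0.672, against 0.246 elsewhere and 0.718 at all starts. A CpG-rich window, with a ratio above 0.6 and a GC content above 50%, was present in 56.7% of the lower-score promoter sites, 56.5% of all starts and 70.1% of promoter sites of 150 or more. It was present in 6.40% of the sites below 150 elsewhere. The GC content and the CpG ratio were higher in the higher score bands, from 65.5% and 0.647 at scores of 50 to 75 to 69.5% and 0.735 in the 74 sites with the highest scores under 150.

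The motifs separated the score classes in a different way. The palindrome was in 8.41% of the promoter sites of 150 or more (9 of 107, Wilson 95% interval 4.49 to 15.2), an interval that lies above that of the lower-score promoter sites. Among sites below 150 elsewhere its share was 1.34%. It was 0.489% and 0.381% in windows 5 kb to the left and right of the lower-score promoter sites and 0.168% around all protein-coding starts. Intervals cover counting error only and treat sites and genes as independent. Of the 23 palindromes within 300 bp of the midpoint of a lower-score site, 10 lay within 50 bp of the midpoint, or 0.0544 per kb searched. The other 13 lay farther out, at 0.0218 per kb from 50 to 100 bp, 0.0223 from 100 to 150 bp, 0.0256 from 150 to 200 bp and 0.00697 (1 palindrome) from 200 to 300 bp. With 1 mismatch allowed among the 8 fixed letters, the share was 7.34% in the lower-score promoter sites, 34.6% in promoter sites of 150 or more, 10.8% in sites below 150 elsewhere and 4.88% at all starts.

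The other motifs were searched on both strands. The GC box GGGCGG, bound by SP and KLF factors, was in 41.8% of the lower-score promoter sites, 43.4% of all starts, 50.5% of promoter sites of 150 or more and 12.4% of sites below 150 elsewhere. As for base composition, the gap between promoter sites and sites elsewhere is partly built into the selection by position. The half-site TGTTCT was in 6.14%, below its 8.40% at all starts and its 13.2% in sites below 150 elsewhere. CCAAT, the NF-Y motif, was in 13.4% against 23.1% of all starts, and the ETS motif CCGGAAG in 4.51% against 9.42%. TATAAA was in 2.12% against 5.72%. The motifs of NRF1 and YY1, both factors of CpG-rich promoters, were each in 3 of the 1839 windows, 0.163% against 0.943% and 0.986% of all starts. Windows around starts are centred on the start and those of the sites on their midpoints, which by itself places motifs with a fixed distance from the start differently. The forkhead motif TGTTTAC was in 0.489% of the lower-score promoter sites, 3.74% of promoter sites of 150 or more (4 of 107), 1.81% of sites below 150 elsewhere, 5.01% of sites of 150 or more elsewhere and 1.62% of all starts. The second forkhead motif, TGTTTGC, was in 1.47%, 3.74%, 2.88%, 8.85% and 2.19% of the same classes. The GATA motif AGATAA was in 2.23%, 1.87%, 5.94%, 7.37% and 4.59% of them. The AP-1 motif TGANTCA was in 3.26% of the lower-score promoter sites, 5.20% of sites below 150 elsewhere, 5.06% and 5.22% of the windows 5 kb away and 3.73% of all starts. The E-box CACGTG was in 5.49% and in 5.14% of all starts.

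**Figure D2:**
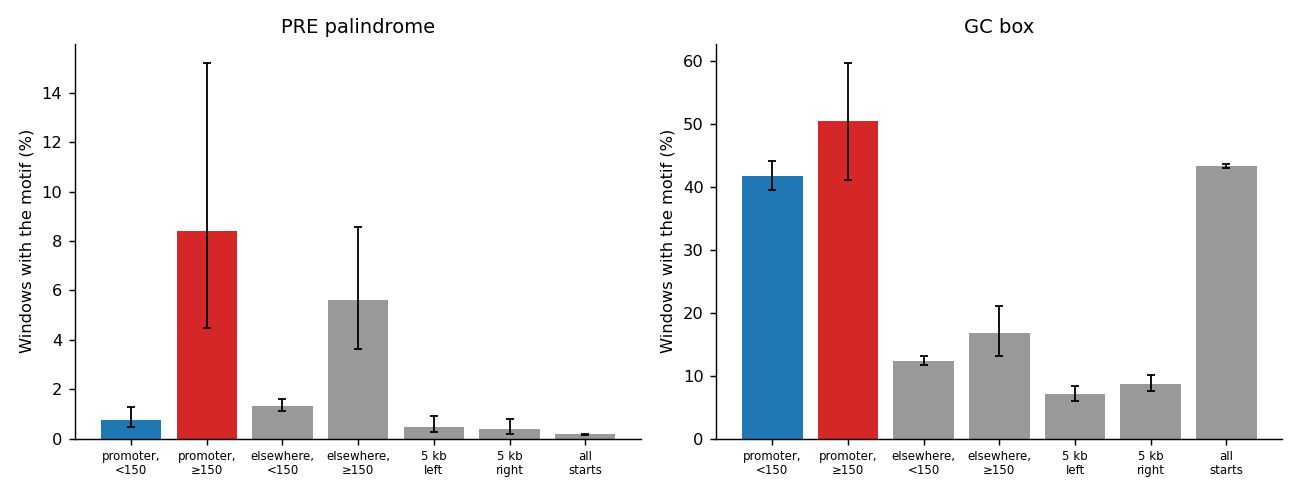
Percentage of 200-bp windows with the PRE palindrome (left) and the GC box (right) in promoter PR sites below 150 (blue) and of 150 or more (red), in PR sites elsewhere, in windows 5 kb from the lower-score promoter sites and around all protein-coding starts (grey). Bars on the columns are Wilson 95% intervals; the palindrome was in 0.761% of the lower-score and 8.41% of the higher-score promoter sites, the GC box in 41.8% and 50.5%.

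The sites were tied to 1737 GENCODE genes. Of these, 1694 were matched to a gene of the RNA files, 1546 by symbol, 143 by transcript accession and 5 by an older symbol, and 43 were not matched. A single gene was tied to 1667 sites, 2 genes to 166 and 3 or more to 6. Conversely, 1504 genes had 1 such site, 194 had 2 and 39 had 3 or more, with a maximum of 5 in *PLEC*, *SEPTIN9* and *TOP1MT*, genes with many annotated starts. In all, 9.03% of the 18754 protein-coding genes of the RNA files had a lower-score promoter site.

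These were mainly active genes. In EtOH, 1160 of the 1694 (68.5%, Wilson 95% interval 66.2 to 70.6) had an FPKM of at least 1, against 53.6% of all protein-coding genes, and the median FPKM was 3.32 against 1.43. The share of genes with a lower-score promoter site was higher in each class of EtOH expression than in the one below it. It was 4.99% of genes listed at 0, 9.88% at 1 to 5 FPKM, 12.4% at 5 to 20, 14.6% at 20 to 100 and 15.8% at 100 or more, where the last 3 intervals overlap. The silent genes among them numbered 204 listed at 0 in EtOH. The most abundant were *MUC1*, a mucin of luminal cells (551 FPKM in EtOH, 520 in R5020), *RPL7*, a ribosomal protein gene (472 and 521), and *ACTG1*, cytoplasmic actin (427 and 373).

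The sites were unevenly spread over the chromosomes. Per 100 expressed genes there were 32.8 lower-score promoter sites on chromosome 17, 31.8 on 8, 30.1 on 20 and 29.5 on 11. There were 2.84 on X, 3.53 on 13 and 5.68 on 22. On another scale, sites below 150 elsewhere per Mb, chromosomes 17 (8.56) and 20 (8.01) were also high and X (0.451) and 13 (0.747) low. Chromosome 8, at 3.76 per Mb, and chromosome 22, at 2.69 beside 2.71 on chromosome 1, did not stand out on that scale. The copy number of these chromosomes in T47D was not analysed here and its part in these counts was not tested.

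**Figure D3:**
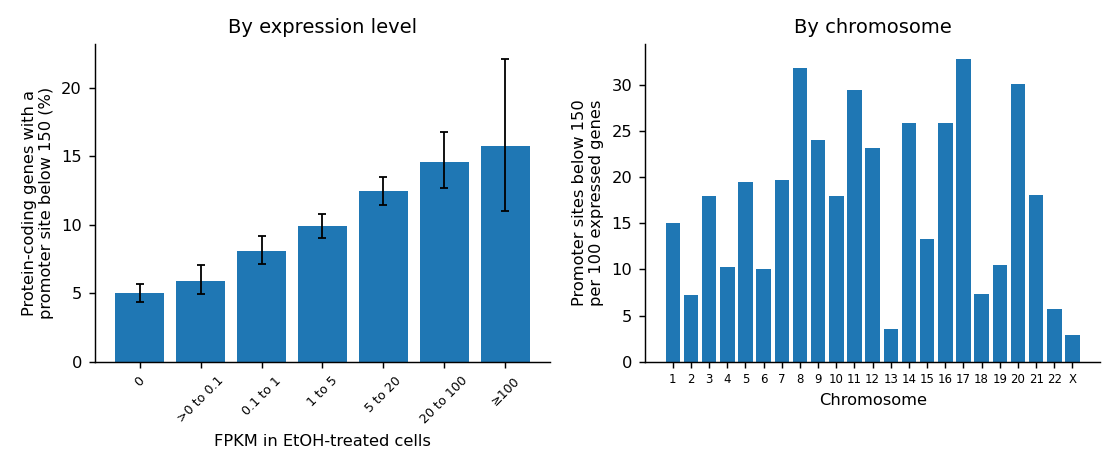
Left, percentage of protein-coding genes with a promoter PR site below 150 in classes of FPKM in EtOH, with Wilson 95% intervals; it runs from 4.99% of genes listed at 0 to 15.8% at 100 FPKM or more. Right, promoter PR sites below 150 per 100 expressed genes on each chromosome, from 2.84 on X to 32.8 on 17.

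The RNA at the same genes addressed whether PR at a promoter, at these scores, went with a change after progestin. A change is the log2 ratio of R5020 to EtOH after 1 was added to each FPKM, a scale that understates the changes of low genes, and FPKM was summed over the transcripts of a gene. Of the 1694 genes, 1189 reached an FPKM of 1 in at least 1 condition and 505 did not. Among the 1189, 121 (10.2%, Wilson 95% interval 8.58 to 12.03) were at least 1.5-fold higher in R5020 and 57 (4.79%, 3.72 to 6.16) at least 1.5-fold lower. The background was 7.67% higher and 4.14% lower among all 11018 genes that reached the same FPKM, and 7.27% higher and 3.6% lower among the 10320 protein-coding ones. Protein-coding genes with no promoter site gave 6.71% and 3.47%. The median change of the 1189 genes was −0.00 on the log2 scale, 594 being above 0 and 595 below. Of the 67 genes that reached the minimum in 1 condition only, 15 were higher and 13 lower; the 1122 that reached it in both held 106 and 44.

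The share of higher genes did not increase with the score below 150. Among genes with no stronger promoter site it was 9.87% (47 of 476) where the best score was 50 to 75, 10.3% (49 of 475) at 75 to 100 and 9.95% (22 of 221) at 100 to 150. The medians of the log2 change were −0.02, −0.00 and 0.06. By contrast, 21 of 76 genes (27.6%, Wilson 95% interval 18.8 to 38.6) whose promoter sites were all of 150 or more were higher and 1 was lower, with a median of 0.21. Lower genes were 4.83%, 5.26% and 3.62% in the same bands, and the interval of the strongest class (0.233 to 7.08) contains these values. The 121 higher and the 57 lower genes had the same median best score, 78.5, and the 1011 others had 79.4.

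**Figure D4:**
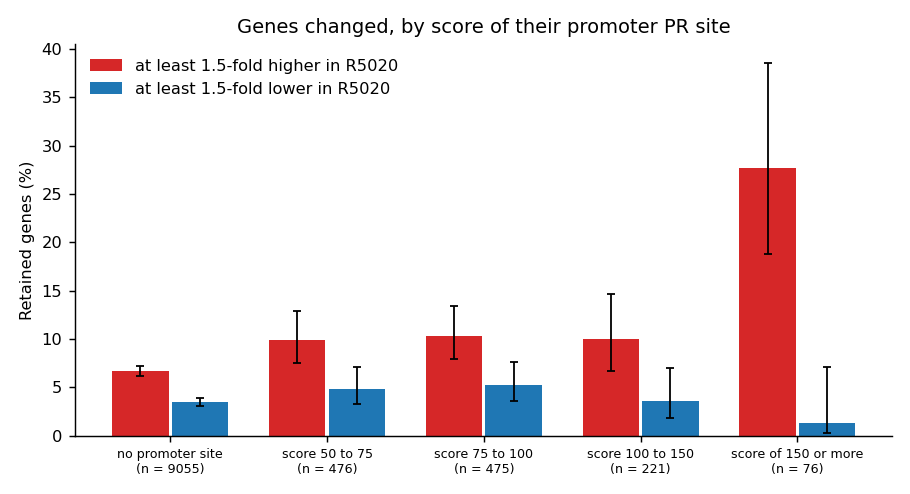
Percentage of retained protein-coding genes at least 1.5-fold higher (red) or lower (blue) in R5020, by the best score of their promoter PR site, with Wilson 95% intervals. The 3 bands below 150 lie between 9.87% and 10.3% higher, against 6.71% of genes with no promoter site and 27.6% of genes at sites of 150 or more.

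Position and number of sites separated the genes little. Where the nearest site was within 200 bp of the start, 9.46% were higher. The share was 10.1% for sites 200 to 1000 bp upstream and 11.3% for sites 200 to 1000 bp downstream. Genes with 2 or more lower-score sites and no stronger one gave 9.46% higher and 6.08% lower, those with 1 site 10.2% and 4.59%. The share was also compared within classes of expression. Genes with lower-score sites only and a mean of 5 to 20 FPKM gave 11.8% higher (59 of 500), against 7.36% of genes without a promoter site in the same class. At 20 FPKM or more the values were 11.9% and 7.02%, at 2 to 5 FPKM 7.30% and 6.02%, and below 2 FPKM 7.93% and 6.24%. On the chromosomes with at least 20 lower-score sites per 100 expressed genes, 8.70% of such genes were higher against 6.24% of genes without a promoter site, and on the others 11.5% against 6.96%.

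Most of these genes also had PR elsewhere. Another site lay within 50 kb of 1185 of the 1694 (70.0%), against 44.8% of all protein-coding genes, and one of 150 or more lay within 50 kb of 134 (7.91%). Where such a strong further site was present, 19 of 107 retained genes (17.8%, Wilson 95% interval 11.7 to 26.1) were higher and 3 lower. Where all further sites were below 150, 59 of 722 (8.17%, 6.39 to 10.4) were higher and 43 lower. The 360 genes with no further site gave 43 higher (11.9%, 8.99 to 15.7) and 11 lower. The interval with strong further sites lies above that with weak ones, and that with none overlaps both. The lowest share of higher genes among these groups was thus that of genes whose further sites were all weak. Protein-coding genes with no promoter site gave 7.73% higher (6.97 to 8.57) with a site of any score within 50 kb. Those with no site within 50 kb gave 5.81% (5.19 to 6.51). The share with weak further sites was thus near that of genes without a promoter site but with one within 50 kb. *NET1* had a further site with a score of 214, *DIXDC1* one of 322 and *E2F1* one of 802, whereas *THBS1*, *IL6ST*, *TSC22D2* and *MYC* had no further site within 50 kb.

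The largest increases were found in genes of several functions. *NET1*, an exchange factor for RhoA, was at 6.53 FPKM in EtOH and 57.7 in R5020, a log2 change of 2.96, beside a site of score 68.6 centred 60 bp upstream of its start. *RCAN1*, an inhibitor of calcineurin, was at 34.9 and 183 (2.35), its site being 954 bp downstream. *TMEM63C*, which encodes a membrane channel protein, was at 0.503 and 6.57 (2.33). These 3 genes had site scores of 68.6, 74.5 and 82.1, near the median of the class.

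Secreted and signaling genes followed. *THBS1*, which encodes the matrix protein thrombospondin 1, was at 11.3 FPKM in EtOH and 50.7 in R5020 (log2 change 2.07). *NDRG1*, a stress-responsive gene, was at 5.34 and 25.2 (2.05), and *DIXDC1*, a Wnt pathway component, at 3.53 and 17.5 (2.03). *IL6ST*, the signaling subunit shared by the receptors of the interleukin 6 family, was at 9.56 and 38.7 (1.91). Of these 4 genes, *IL6ST* encodes a receptor subunit and *THBS1* a secreted protein.

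Transcriptional regulators were also among the 10 largest increases. *TSC22D2*, of the leucine zipper family of *TSC22D3*, was at 6.30 FPKM in EtOH and 26.2 in R5020 (log2 change 1.90), next to a site with a score of 129. *MYC*, the growth-promoting transcription factor, was at 1.53 and 8.31 (1.88). *VDR*, the vitamin D receptor, was at 6.35 and 24.9 (1.82). The other 111 higher genes ranged from 1.77 (*KLF4*) to 0.59 (*GNB4*), and 50 of the 121 passed 2-fold.

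**Figure D5:**
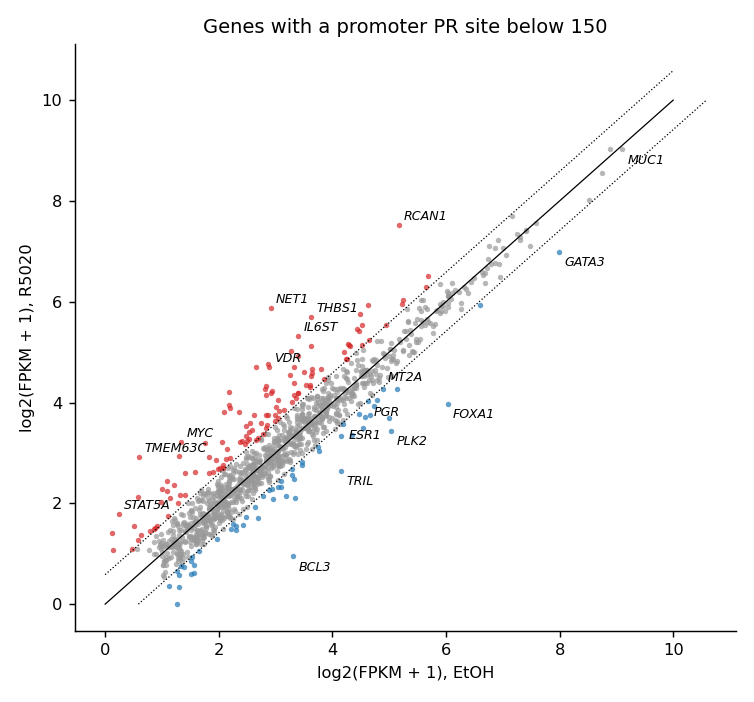
log2(FPKM + 1) in EtOH (x) and R5020 (y) of the 1189 retained genes with a promoter PR site below 150; the solid line marks equal values and the dotted lines 1.5-fold. The 121 genes higher in R5020 (red) include *NET1* and *RCAN1*, the 57 lower (blue) include *BCL3*, *FOXA1* and *GATA3*, and *MUC1* lies between the lines.

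The largest decreases were fewer and smaller, 9 of the 57 passing 2-fold. *BCL3*, an atypical IκB protein, was at 8.92 FPKM in EtOH and 0.935 in R5020 (log2 change −2.36). *FOXA1*, a pioneer factor of luminal cells, was at 64.3 and 14.7 (−2.05). *PLK2*, a polo-like kinase, was at 31.9 and 9.85 (−1.60). *TRIL*, which encodes an accessory protein of Toll-like receptors, was at 16.8 and 5.26 (−1.50). The *BCL3* site lay 900 bp upstream of its start, the other 3 within 200 bp.

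Smaller decreases included a junction gene and a differentiation inhibitor. *CLDN3*, a tight junction claudin, was at 30.8 FPKM in EtOH and 11.9 in R5020 (log2 change −1.30). *STC2*, the secreted glycoprotein stanniocalcin 2, was at 22.2 and 10.3 (−1.04). *ID2*, an inhibitor of bHLH factors, was at 8.06 and 3.42 (−1.04), and *FAM84B* at 19.4 and 9.20 (−0.999). *DBNDD2* was at 9.10 and 3.31 (−1.23), a difference that fell to −0.34 when its highest transcript stood for the gene. *LRRC26*, at 1.39 FPKM in EtOH, was listed at 0 in R5020. It was the only retained gene of the class listed at 0 in a condition.

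Luminal transcription factor genes often had a lower-score promoter site and were mostly lower in R5020. This list was fixed with earlier results of these data known. Of its 27 genes, 9 (33.3%) had such a site, against 9.03% of all protein-coding genes, silent ones included. The share was 12.4% of genes at 5 to 20 FPKM in EtOH and 14.6% at 20 to 100. Other lists ranged from 2.63% (histone genes) to 27.1% (immediate early and AP-1 genes), with 25.8% for progestin and corticoid targets. A high share was thus not particular to luminal factors. Of the 9 genes, 7 were retained, 6 of them lower, none higher, with a median log2 change of −0.71. The background over all retained genes was 4.14% lower and 7.67% higher. The whole list gave 9 lower and 6 higher of 24 retained, with a median of −0.49, and all retained genes a median of 0.01. *GATA3*, which specifies luminal cells, was at 253 FPKM in EtOH and 126 in R5020 (−0.998). *SPDEF*, an ETS factor, was at 22.9 and 12.2 (−0.86) with a site score of 50.3, at the floor of the file. *RARA*, a retinoic acid receptor, was at 5.21 and 2.80 (−0.71).

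The genes of the steroid receptors themselves belonged to this group. *ESR1*, the estrogen receptor α gene, was at 17.2 FPKM in EtOH and 10.9 in R5020 (log2 change −0.61). Its site lay 602 bp upstream of the nearest annotated start, but downstream of the start of its most abundant transcript (NM_000125). *PGR*, with 2 lower-score promoter sites and no further site within 50 kb, was at 23.7 and 15.3 (−0.60), and at −0.44 by its highest transcript. *TFAP2C*, the seventh retained gene, was at 15.9 and 11.1 (−0.48), and was the one luminal factor gene that also had a promoter site of 150 or more. The retinoid receptor gene *RARG* was lower as a sum of its transcripts, at 5.45 and 2.28 (−0.98). Its transcripts starting at the site were at 2.54 and 2.28 FPKM (−0.11). Those starting elsewhere were at 2.91 in EtOH and listed at 0 in R5020, which is not read as a loss.

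Known progestin and corticoid targets gave the opposite picture. Of the 66 genes on that list, 17 had a lower-score promoter site and 16 were retained, 9 higher and 2 lower, with a median of 1.17. Over all retained genes 7.67% were higher and 4.14% lower. The list itself, which includes genes the study named on these samples and is no independent evidence of direction, gave 34 higher and 4 lower of 53, with a median of 1.40. *STAT5A*, a mediator of prolactin signaling, was at 0.183 FPKM in EtOH and 2.45 in R5020 (1.55), *S100P* at 0.484 and 3.37 (1.56) and *BCL2L1*, an inhibitor of apoptosis, at 36.9 and 64.8 (0.80). *PRLR*, the prolactin receptor gene, was at 152 and 162 (0.10). *HES1*, a target of Notch, was lower, at 16.9 and 9.05 (−0.83).

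Small GTPase genes and their regulators showed mostly increases. This list was chosen by the study on these samples, so its direction is not independent. Of its 58 genes, 12 had a lower-score promoter site and 10 were retained, 8 higher and 1 lower, with a median of 0.90. The list as a whole gave 36 higher and 10 lower of 53, and all retained genes 7.67% higher and 4.14% lower. Beside *NET1*, the GTPase gene *RAP2B* was at 5.14 and 12.5 FPKM (log2 change 1.14) and *ARF6* at 22.1 and 45.2 (1.001). *RASGEF1A*, an exchange factor, was at 4.55 and 10.6 (1.06), and *ARHGEF2*, an exchange factor of RhoA, at 5.88 and 3.42 (−0.64), or −0.37 by its highest transcript. On the wider list of GTPase genes taken by symbol alone, 13 were retained, of which 2 (*ARF6*, *RAP2B*) were higher and none lower.

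Other regulators gave mixed values, and their few members are to be read against the background of 7.67% higher and 4.14% lower and against their full lists. Of 13 immediate early and AP-1 genes with a site, 8 were retained, 3 higher (*MYC*, *ATF3*, *KLF10*) and 1 lower (*BCL3*), against 15 higher and 7 lower of 33 on the full list; *JUNB* was at 1.52 FPKM in EtOH and 1.001 in R5020. *FOS*, *FOSB*, *DUSP6* and *NR4A3* had sites but stayed below 1 FPKM in both libraries. Of 9 cell cycle genes, *E2F1* (3.61 and 6.45 FPKM) and *CDK6* (0.730 and 1.74) were higher and *PLK2* lower, against 5 higher and 2 lower of 43. *NCOA3*, a coactivator of nuclear receptors, was at 11.4 FPKM in EtOH and 16.3 in R5020 (log2 change 0.48, or 0.65 by its highest transcript). Of 26 retained zinc finger genes 4 were higher, led by *ZNF652* (9.03 and 25.1 FPKM, 1.38), and none was lower, against 14 higher and 4 lower of 376. Of 3 KLF genes 2 were higher (*KLF4*, *KLF10*), and of 3 retained apoptosis genes 1 was higher (*BCL2L1*). The full lists gave 7 higher and 0 lower of 12 KLF genes and 7 higher and 1 lower of 32 apoptosis genes.

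Genes of general cell functions had sites without passing 1.5-fold. None of 12 retained oxidative phosphorylation genes, 11 translation factor genes, 11 RNA processing genes, 6 cytosolic and 4 mitochondrial ribosomal protein genes, 4 chaperone genes, 3 proteasome genes, 2 histone genes and 1 reference gene (*B2M*) passed it in either direction. These lists include *COX4NB*, *ATP5SL* and *EEF2K*, which share a symbol stem with other members but whose function was not checked. For each list taken alone, a count of 0 among so few genes says little beside the background of 7.67% higher and 4.14% lower. The lists pooled were not compared with it. Several full lists also held few calls. Oxidative phosphorylation genes gave 0 higher and 4 lower of 85. Translation factor genes gave 1 and 0 of 62, and RNA processing genes 3 and 0 of 115. The full chaperone list had 4 higher and 2 lower of 28, and the full histone list 1 and 5 of 33. The medians of the first 7 lists lay between −0.19 (cytosolic ribosomal) and 0.09 (mitochondrial ribosomal). They were well expressed, with median EtOH levels of 45.4 FPKM for the translation factors and 76.7 for the chaperones, which included *HSPA8* at 366 and 259 FPKM (log2 change −0.49) and *HSP90AB1* at 105 and 101. Of 31 retained solute carrier genes 2 were higher and 1 was lower, against 24 and 9 of 175 on the full list. In the epithelial junction and keratin list *CLDN8* was higher (1.31 and 4.15 FPKM) while *CLDN3* and *KRT80* (10.1 and 5.81 FPKM, log2 change −0.70, or −0.49 by its highest transcript) were lower.

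Genes with a palindrome in a lower-score promoter site were few. They numbered 25, of which 21 were retained, 5 were higher (23.8%, Wilson 95% interval 10.6 to 45.1) and none lower, with a median log2 change of 0.11. Among genes with a lower-score site and no palindrome in it 117 of 1175 were higher (9.96%, 8.37 to 11.8), so the intervals overlap. *PTPRJ*, a receptor tyrosine phosphatase, was at 8.56 FPKM in EtOH and 22.5 in R5020 (1.30). *MICAL2*, an actin-regulating monooxygenase, was at 1.13 and 3.73 (1.15) and *MBNL1*, a splicing regulator, at 18.7 and 34.1 (0.84). *PHC2*, a Polycomb protein gene, and *MYNN*, a zinc finger gene, had changes of 0.68 and 0.59. Not every gene with a palindrome was higher: *MT2A*, a metallothionein gene, was at 28.3 and 25.1 (−0.16) and *GNPDA1*, whose site holds 2 palindromes, at 11.4 and 9.41 (−0.26). When the palindrome had to lie in the central 200 bases, 1 of 14 retained genes was higher.

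A promoter site can serve one start of a gene and not another, so transcripts were compared by their start. Of the 1694 genes, 1312 had a deposited transcript starting within 1 kb of the site and 382 had none, and their shares of higher genes were 10.1% and 10.6%. In 199 genes some transcripts started at the site and others away from it, and in 44 of these both groups reached 1 FPKM in a condition. The transcripts at the site were higher in 12 of the 44 genes and lower in 5, those away from it higher in 10 and lower in 6. In *NET1* the transcript at the site (NM_005863) was at 2.55 FPKM in EtOH and 57.7 in R5020. The other (NM_001047160) was at 3.99 FPKM in EtOH and listed at 0 in R5020, neither value being flagged as failed. It is not read as a loss, since the paper reports a relatively stable level of this variant by RNA-seq and RT-qPCR. The next largest gaps, in *CORO1B*, *ZNF623*, *SEPT9* (the RNA files' symbol for *SEPTIN9*) and *CACNB3*, each also rest on a group listed at 0, and how reads were divided among overlapping transcripts was not tested.

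Some sites were shared by 2 genes. There were 135 such sites with both genes in the RNA files, 124 of them with genes on opposite strands. Both genes were retained at 95 of these. At 84, neither gene passed 1.5-fold; at 7, 1 was higher, at 3, 1 was lower, and at 1, between *CSNK1A1* and *ARHGEF37*, both were higher. Since 15.0% of all retained genes with a lower-score promoter site passed 1.5-fold in either direction, nothing is read from the small number of joint changes among 95 pairs. *CSNK1A1*, casein kinase 1α, was at 50.7 FPKM in EtOH and 89.6 in R5020, and *ARHGEF37* at 3.07 and 5.50. At the site between the *STAT5A* and *STAT5B* starts, *STAT5A* had a log2 change of 1.55 and *STAT5B*, at 3.93 and 5.87 FPKM, one of 0.48.

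Genes on either side of the score limit are given for description. Just below it, *ITGB8* had a site of 149.37 and was at 1.04 FPKM in EtOH and 1.21 in R5020, and the site shared by *TNNC2* and *SNX21* had 148.68, with *SNX21* at 2.04 and 1.48. *SNX8*, at 148.41, was at 4.20 and 5.65. Just above it were the sites of *TMEM123* (150.52), of *B9D1* and *MAPK7* (150.72) and of *SHC4* (151.58).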

How the data were processed

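The authors aligned the ChIP-seq reads to hg19 with Bowtie 1.1.2, called sites with MACS against input DNA and deposited each site with a score. RNA reads were aligned with TopHat, and the authors deposited the FPKM and the coverage signal that Cufflinks gave per RefSeq transcript. FPKM has length and library size divided out, so no count model was used, and coverage served for depth only (coverage times length over 50 bases). Protein-coding transcript starts came from GENCODE release 44 as lifted to GRCh37 (hg19). FPKM was summed per gene, a pseudocount of 1 was added, and genes with an FPKM of 1 in at least 1 condition and 1.5-fold were used as limits. Motifs were searched in 200 bases centred on each midpoint. Sites, gene lists (21), motifs (15), limits and the rule for named genes were chosen with earlier results of these data known. Named are the 10 largest increases and decreases, the highest levels and scores, list members, genes the study names, the largest transcript gaps and genes with a palindrome. *KLF4*, *GNB4*, *RARG*, *CSNK1A1*, *S100P*, *PHC2*, *MYNN*, *PTPRJ*, *MICAL2* and *MBNL1* illustrate a range, a list or a sequence set. The result of 1 gene list is not reported here in full. The procedure was tested on simulated data. Python 3.11.15, pandas 2.3.3, numpy 2.4.6, scipy 1.17.1 and pysam 0.24.0 were used. Per the study's methods, ChIP cells were kept in charcoal-stripped serum longer before harvest than RNA cells, so sites and RNA come from differently handled cultures. Whether the RNA libraries came from separate cultures is not given in the sources used here.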

Additional observations from a re-analysis of the deposited data

How the results depend on the processing

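With 1 library per condition no replicate could be left out. No paired analysis was possible because each condition has 1 library and no result comes from a test. The read depth behind each site is not in the deposited values, which limits what a score near 50 can show. Coverage was deposited per transcript but was not examined gene by gene here, which limits what an FPKM near 1 can show. Sites numbered 1343 to 2451 when the distance was 500 bp or 2 kb, and 287 with a score of 100 to 150. Higher genes numbered 92 (500 bp) to 152 and lower genes 44 to 97 under the other scales, filters, summaries and the shorter distance; a pseudocount of 0.1 gave 97 lower genes, 2-fold 50 higher and 9 lower, and a score of 100 to 150 gave 23 higher and 8 lower, with a median log2 change of 0.0626. The expressed share was 60.4% at 2 FPKM. The palindrome share was 7.34% with 1 mismatch. Genes with another PR site were 48.3% within 10 kb and 7.91% with a score of 150 or more. Shares of higher genes by groups of chromosomes, an alternative chosen after seeing the data, stayed within the interval of the whole. Of 122 named genes, none changed sides with rescaling to a median of 0 and 8 gained 1.5-fold with a pseudocount of 0.1. When the highest transcript stood for the gene, 105 kept side and direction, 5 lost and 3 gained 1.5-fold, and 9 reversed: *ATP5S* (−0.47), *CACNB3* (0.41), *CFLAR* (−0.56), *CORO1B* (0.23), *DDX19B* (0.0534), *E2F8* (0.18), *GNAS* (0.0069), *ZNF219* (0.19) and *ZNF623* (−0.37).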

Other observations

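The scores of the lower-score promoter sites repeated themselves. The 1839 sites had 1133 distinct scores, and 1033 sites (56.2%) shared theirs, to 2 decimals, with at least 1 other. The value 90.51 occurred in 47 sites, 59.16 in 29 and 74.5 in 25. The 107 promoter sites of 150 or more had 100 distinct scores. The ranking within the class is therefore coarse, and the cause was not tested.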
